A study of Homo sapiens with 12 samples.

Results

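The proteasome is the protease complex that degrades ubiquitin-tagged proteins, and its subunit genes were followed here through the nucleus and the cytoplasm of HEK293T cells given normal or mutant SF3B1. The genes were chosen by name: every protein-coding gene whose symbol is PSMA, PSMB, PSMC or PSMD followed by a number. There were 39 such genes among the 67049 gene identifiers of each library, of which 19907 were protein-coding. The PSMA and PSMB genes (19) encode the 20S core and the PSMC and PSMD genes (20) are taken here as the 19S cap. Among the latter, PSMD5, PSMD9 and PSMD10 are assembly chaperones of the cap and not subunits of the finished particle.

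In the 20S core, rings of alpha subunits guard the entrance and rings of beta subunits hold the proteolytic sites. The 19S cap binds ubiquitin chains, removes them, unfolds the substrate with a ring of ATPases and opens the core. Most of these subunits are needed in fixed numbers per particle, and their genes are known to be raised together by the transcription factor NFE2L1 when proteasome activity is short.

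HEK293T is a human embryonic kidney line. The cells were transfected for 48 h, using Lipofectamine 2000, with the plasmid pIRES2-SF3B1 carrying either the WT sequence or the K700E change, and RNA was taken from nucleus and cytoplasm with Trizol, which gave 4 groups of 3 libraries each. SF3B1 is a component of the spliceosome that takes part in branch point recognition, and K700E is a change recurrent in myeloid disease. All 4 groups therefore carried an SF3B1 plasmid beside the cells' own gene, none of the 12 libraries came from untransfected or empty-plasmid cells, and the expression was transient. The labels do not say whether replicates were separate cultures, so the p-values below measure only the spread between these libraries.

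Total counts ran from 9086743 to 11200562 per nuclear library and from 13422598 to 18116929 per cytoplasmic library. Levels are given as CPM, the usual unit that sets the count of a gene against the total of its library, here with TMM scaling factors. All 8 HEK293T markers had counts in all 12 libraries, LHX1 at no more than 1.00 CPM. Of 9 markers of other cell types, 7 stayed under 1 CPM in every library, while COL1A1 reached 111 CPM and ALB 20.3 CPM. The summed level of MALAT1, NEAT1 and KCNQ1OT1, RNAs kept in the nucleus, was 2454 to 9673 CPM in the nuclear and 74.5 to 132 CPM in the cytoplasmic libraries. SF3B1 itself, plasmid and cellular copies counted together, stood at 1024 to 2479 CPM in the nuclear libraries. In the cytoplasm it stood at 10075, 10011 and 8206 CPM with WT and at 6917, 8294 and 8560 CPM with K700E, and gene counts do not tell the mutant from the normal copy.

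Of the 39 genes, 34 had enough counts to be tested among 20394 genes, 14 of the core and 20 of the cap. The 5 that were not are the core subunits of special proteasomes. PSMB8 and PSMB9, catalytic subunits of the interferon-induced immunoproteasome, had no count in any of the 12 libraries. PSMB10, the remaining immunoproteasome subunit, reached at most 1.31 CPM. PSMA8, a testis form, reached at most 0.310 CPM, and PSMB11, a thymus form, had counts in 1 library only.

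Some promoter sequences are shown because they hold the antioxidant response element, the motif that NFE2L1 binds. Promoters from RefSeq (GRCh38.p14) matched 34 of the 39 genes. The motif was searched as TGACNNNGC on both strands in the 250 bases before each start, and 8 of the 34 genes (23.5%) held it, against 13.2% of all genes with a RefSeq promoter. The 5 windows below are those with the motif on the gene's own strand that lie before the annotated gene. They are written 5′ to 3′ with the motif in capitals, for PSMB3 (beta ring, chr17:38752625-38752657, plus strand), PSMD3 (lid, chr17:39980758-39980790, plus strand), PSMD12 (lid, chr17:67366722-67366754, minus strand), PSMD5 (assembly chaperone, chr9:120843036-120843068, minus strand) and PSMD9 (assembly chaperone, chr12:121888676-121888708, plus strand).
PSMB3: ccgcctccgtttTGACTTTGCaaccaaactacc
PSMD3: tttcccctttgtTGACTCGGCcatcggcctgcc
PSMD12: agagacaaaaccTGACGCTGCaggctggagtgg
PSMD5: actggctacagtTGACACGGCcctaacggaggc
PSMD9: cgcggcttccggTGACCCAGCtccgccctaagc
These 5 genes did not share a level or a split between fractions: PSMD3 and PSMD12 were abundant and cytoplasmic, PSMD5 was low and nuclear, and PSMB3 and PSMD9 were low in all groups. Of the other motifs searched in the same windows, CCAAT was held by 17 of the 34 genes (50%, against 37.0% of all genes), the Sp1 letters GGGCGG by 20 (58.8%, against 46.2%), the NRF-1 motif by 4 (11.8%, against 6.20%) and TATAAA by 5 (14.7%, against 13.05%). A match describes the letters and is not a site shown to be bound.

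**Figure D1:**
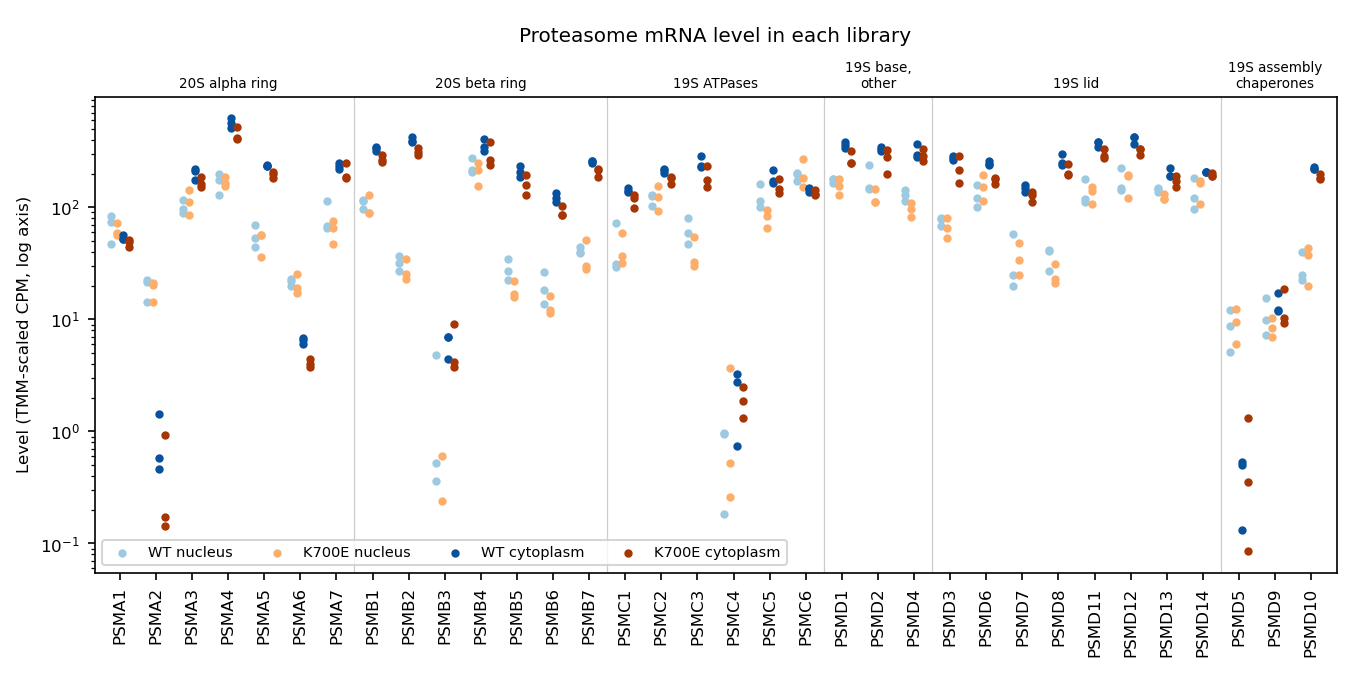
Level of each of the 34 tested proteasome genes in TMM-scaled CPM on a log axis, 1 point per library, in 4 groups of 3 libraries and ordered by role. Most genes are higher in the cytoplasm, and PSMA2, PSMA6, PSMB3, PSMC4 and PSMD5 stay under 10 CPM in every cytoplasmic library, with PSMD9 next at 9.37 to 18.6 CPM; a library without a count (PSMB3, 1 library of the K700E nucleus) is not drawn.

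Levels between genes are compared per kilobase of exon, with the exons of all transcripts of a gene joined (exon union). The order depends on this length. The exon union was 1787 bases against 980 for the longest transcript in PSMB7, and 2158 against 2067 in PSMB4. An order by the longest transcript was not made. By the exon union PSMB4, a structural subunit of the beta ring, had the highest level per kilobase in all 4 groups. In the cytoplasm with WT it stood at 166 ± 21.5 CPM per kb (SD, n = 3), followed by the beta subunit PSMB1 at 148 ± 6.48 and the catalytic subunit PSMB7 at 143 ± 4.32. These 3 neighbours in the order did not differ beyond their spread. The interquartile range of the tested genes there ran from 24.1 to 84.7 CPM per kb, a 3.52-fold span.

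At the other end were genes whose products belong to every 20S or 19S particle and whose counts were nonetheless low. PSMA2, an alpha ring subunit, had 286, 164 and 236 counts in the WT nuclear libraries and 16, 7 and 7 in the WT cytoplasmic libraries. PSMC4, an ATPase of the cap, had between 2 and 50 counts in every library, and PSMB3, a beta ring subunit, between 0 and 128. In the GENCODE 29 annotation, 97.1% of the coding bases of PSMA2 also lie in exons of another gene. The same held for 88.6% in PSMA1, 70.4% in PSMA6, 58.7% in PSMD9 and 58.3% in PSMB10. These 5 of 39 genes (12.8%) compare with 5.04% of the tested protein-coding genes. PSMB3, PSMC4 and PSMD5 share no coding base with another gene in that annotation. How the authors' counting treated reads in shared exons is not stated, so the levels of these genes are uncertain, and its part in them was not tested. Taking out the 7 tested genes with such sharing or with under 10 CPM in a cytoplasm left 27, a choice made after the values were seen.

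The first question was how proteasome mRNA was split between the fractions. With WT, 26 of the 34 genes were higher in the cytoplasm and 3 were lower at an adjusted p under 0.05 (edgeR quasi-likelihood test, all genes tested), with 5 not called. Over all genes, 27.1% were called higher and 40.0% lower. The median log2 ratio of cytoplasm to nucleus was 1.37 for the 34 genes, against -0.40 for all genes and 0.13 for protein-coding genes. With K700E, 24 were called higher and 4 lower, against 28.1% and 37.9% of all genes, with a median of 1.14. Scaling by library size alone, which lowered the median of all genes with WT from -0.40 to -0.92, left 19 of the 34 genes higher and 5 lower under each construct. Of all 20394 genes, that scaling called 3775 higher and 10263 lower with WT, and 4215 higher and 9460 lower with K700E. Choosing genes by a high cytoplasmic level itself favours a high ratio, so the next values are no neutral comparison. Among the 1190 protein-coding genes at a mean of 200 CPM or more in the cytoplasmic libraries, the median was 1.47 with WT. The 18 proteasome genes at that level had a median of 1.56.

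PSMB2, a non-catalytic beta ring subunit, stood at 37.0, 32.0 and 27.0 CPM in the WT nuclear libraries and at 426, 388 and 387 CPM in the WT cytoplasmic ones. With K700E it stood at 34.3, 25.4 and 23.1 CPM in the nucleus and at 291, 337 and 312 CPM in the cytoplasm. The fractions were far apart with no overlap. Its log2 ratio of 3.64 ± 0.20 (SE) was the highest of the 34 genes with WT, and 3.51 ± 0.20 with K700E (edgeR adjusted p 1.49e-08 and 1.79e-08).

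The beta ring was the most cytoplasmic group, with 6 of 7 genes called higher under each construct and medians of 2.64 (WT) and 2.79 (K700E). The catalytic subunits were close to one another: PSMB5, which cleaves after hydrophobic residues, had a log2 ratio of 2.90 ± 0.23 with WT, PSMB6, which cleaves after acidic residues, 2.66 ± 0.24, and PSMB7, which cleaves after basic residues, 2.64 ± 0.22. PSMB4 was the least cytoplasmic of the ring, at 0.63 ± 0.23 with WT. PSMB3 had 61, 6 and 4 counts in the WT nuclear libraries and 3, 7 and 0 in the K700E nuclear libraries. Its log2 ratio with K700E, 4.29 ± 0.97, was the highest of the 34 and rests on those few counts.

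In the alpha ring 4 of 7 genes rose in the cytoplasm and 2 fell, under each construct. PSMA5 had the highest ratio, 2.08 ± 0.22 with WT. PSMA2 had the lowest ratio of all 34 genes, -4.58 ± 0.50 with WT and -5.46 ± 0.57 with K700E (edgeR adjusted p 1.43e-06 and 5.17e-07). PSMA6 stood at 22.7, 19.7 and 22.2 CPM in the WT nucleus and at 6.49, 6.06 and 6.86 CPM in the WT cytoplasm, a log2 ratio of -1.73 ± 0.25. PSMA1 was the member not called in either construct. All 3 of these genes share most of their coding bases with another gene.

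Among the ATPases of the cap, 4 of 6 were called higher under each construct. PSMC5 stood at 114, 162 and 101 CPM in the WT nucleus and at 165, 171 and 216 CPM in the WT cytoplasm, so that the groups were separated by little. Its log2 ratio was 0.55 ± 0.23 with WT (edgeR adjusted p 0.041) and 0.92 ± 0.23 with K700E (adjusted p 0.0022). The WT call was lost in 10 of the alternatives, with an adjusted p of up to 0.931 when libraries were scaled by their size alone. PSMC6 was the ATPase on the nuclear side, at -0.41 ± 0.21 with WT, not called, and -0.59 ± 0.21 with K700E, called. PSMC3 had the highest ATPase ratio, 2.01 ± 0.26 with WT.

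The large base subunits PSMD1 and PSMD2 and the ubiquitin receptor PSMD4 were all called higher under both constructs, by 0.81 to 1.63. All 8 lid subunits were called higher with WT and 6 of 8 with K700E. PSMD8 led the lid at 2.83 ± 0.22 with WT and 3.08 ± 0.22 with K700E, and PSMD14, the deubiquitinase of the lid, was at 0.63 ± 0.24 and 0.40 ± 0.24, not called with K700E. The assembly chaperones, which leave the finished cap, were spread widely. PSMD10 had a ratio of 2.93 ± 0.27 with WT and PSMD5 of -4.49 ± 0.69, with PSMD9 not called. PSMD5 stood at 5.17, 8.77 and 12.01 CPM in the WT nucleus and at 0.534, 0.498 and 0.131 CPM in the WT cytoplasm.

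**Figure D2:**
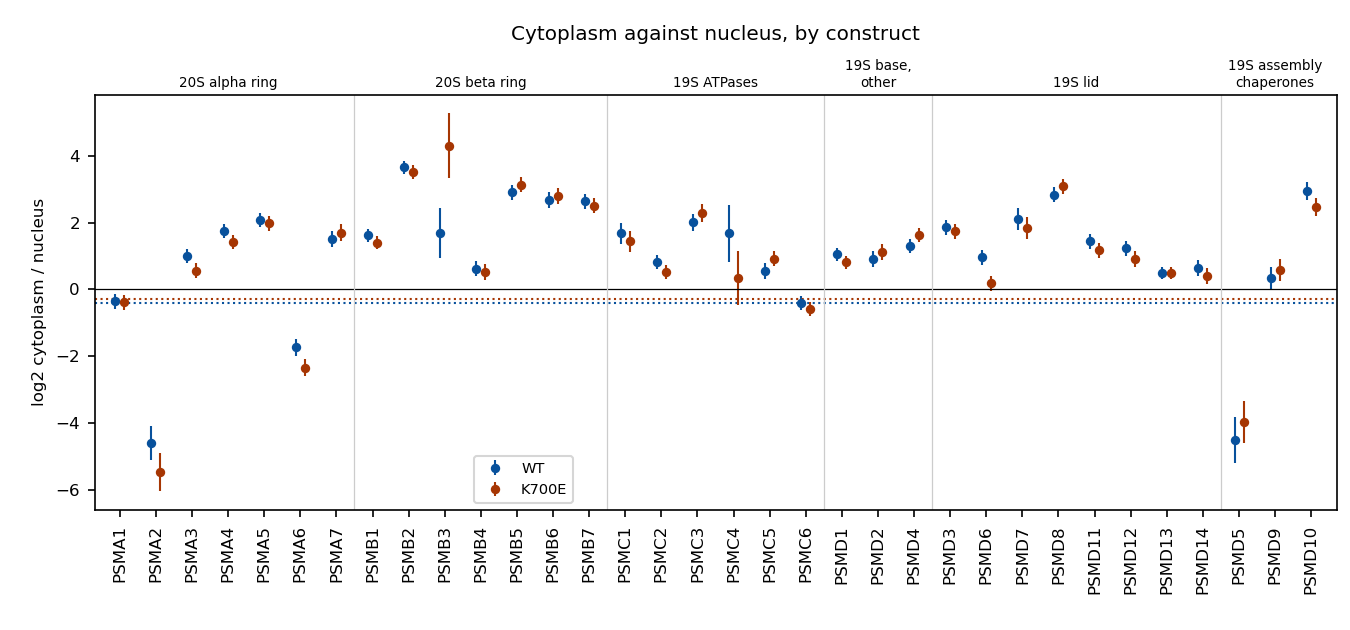
Log2 ratio of cytoplasm to nucleus for each of the 34 tested genes with WT and with K700E, as points with their SE from edgeR (3 libraries per group), dotted lines marking the median of all genes. The beta ring runs from 0.63 to 3.64 with WT, and PSMA1, PSMA2, PSMA6, PSMC6 and PSMD5 sit below 0 under both constructs.

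Without the 7 genes of shared coding bases or low cytoplasmic level, 26 of 27 were called higher and 0 lower with WT. With K700E, 23 were called higher and 1 lower. The restriction takes out genes for a low cytoplasmic level, among them PSMA2, PSMA6 and PSMD5, the 3 genes called lower with WT. Among all 34 genes the number called higher with WT was also 26, so that none of the 7 taken out was called higher. The share of 26 of 27 and the 0 lower calls with WT therefore follow from the choice of genes. Genes with longer exon unions had lower ratios: across the 34 genes the Spearman correlation was -0.44 with WT and -0.50 with K700E. With the GC content of the longest transcript the correlation was of similar size, at 0.37 with WT and 0.49 with K700E. Both describe genes measured in the same libraries, and the part of either feature was not tested.

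Core and cap were then set side by side, without a test, since genes are not replicates. The cap values include the 3 assembly chaperones, and shares without them were not computed. The median log2 ratio of cytoplasm to nucleus was 1.64 for the core and 1.14 for the cap with WT, and 1.55 and 0.91 with K700E. The core made up 46.5, 47.4 and 48.4% of the summed level per kilobase in the WT nuclear libraries and 52.6, 52.0 and 51.9% in the WT cytoplasmic ones. With K700E it made up 45.9, 49.2 and 47.4% in the nucleus and 51.5, 51.3 and 52.4% in the cytoplasm. In this share every cytoplasmic library was above every nuclear library, and the constructs overlapped within each fraction. The fractions overlapped when each tested gene was weighted equally: the mean log2 CPM of the core minus that of the cap was -0.53 to -0.31 in the cytoplasmic and -0.85 to -0.47 in the nuclear libraries. With the length of the longest transcript in place of the exon union, the mean core share was 43.6 and 49.1% with WT and 44.1 and 48.6% with K700E.

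**Figure D3:**
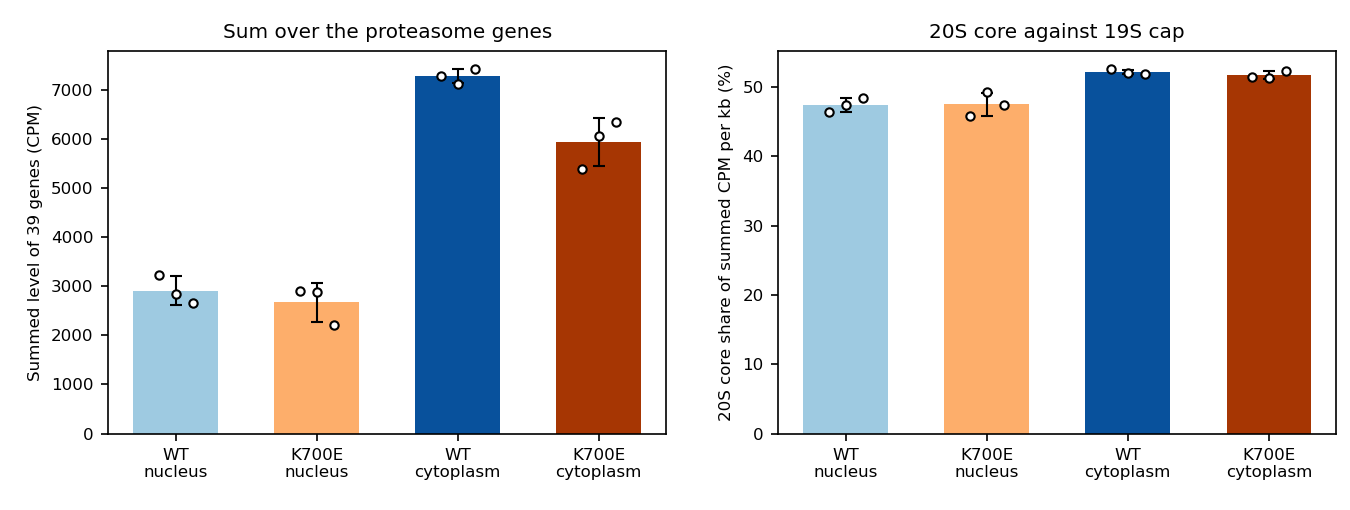
Left, summed level of the 39 proteasome genes in CPM; right, share of the 20S core in the summed level per kilobase. Bars are means of 3 libraries, error bars SD and points single libraries; the K700E cytoplasm lies below the WT cytoplasm on the left, and the core share is higher in the cytoplasm than in the nucleus on the right.

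The next comparison was K700E against WT in the cytoplasm, where a shared shift of these genes had been seen in earlier results of these data. The values below describe that shift and are no independent support for it. No gene of the 34 passed the test with edgeR or with DESeq2, and 1 of 20394 genes did with edgeR (higher, 0.0049%, and lower, 0.0%). DESeq2 called 11 of the 20394 genes higher and 2 lower. Yet 33 of the 34 point estimates were below 0, against 47.6% of all genes, with a median of -0.29 against 0.00. The exception was PSMD5, at 0.65 ± 0.77 on a few counts, with 0.534, 0.498 and 0.131 CPM with WT and 0.0856, 1.32 and 0.356 CPM with K700E. At an unadjusted p under 0.05 there were 3 genes, against 4.56% of all genes, and also 3 with DESeq2, against 1039 of 20394 genes.

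The summed level of the 39 genes was 7281, 7128 and 7417 CPM in the WT cytoplasmic libraries and 5396, 6069 and 6345 CPM in the K700E ones. The groups did not overlap, and replicate 1 of K700E was the lowest. As a share of all counts the same genes held 0.610, 0.595 and 0.626% with WT and 0.464, 0.525 and 0.544% with K700E. In bulk RNA, less RNA of these genes per cell and fewer cells of a kind cannot be told apart. The summed level of the 8 HEK293T markers went the other way without overlap, from 729 to 916 CPM in the WT cytoplasm and from 937 to 1055 CPM in the K700E cytoplasm, while that of the 9 markers of other cell types overlapped (15.7 to 23.9 and 17.9 to 30.7 CPM). The part of the markers in the proteasome values was not tested.

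Over the 34 genes the SD between the estimates was 0.23, about the median SE of a gene, also 0.23, with an interquartile range of -0.34 to -0.22. In the 27 genes left after the restriction, all were below 0, from -0.50 (PSMD6) to -0.09 (PSMD14), with a median of -0.30. The SD between these genes was 0.097, while the median SE of a gene was 0.22. The restriction took out PSMD5 (0.65), the only gene above 0, and the lowest estimates, PSMA2 (-0.93) and PSMA6 (-0.67). That all 27 were below 0 therefore follows from the choice of genes, and the smaller SD does so in part. Estimates for genes of the same libraries share the error of those libraries. Of the 34 genes, 15 had all 3 K700E libraries below all 3 WT libraries, against 6.98% of all genes: PSMA1, PSMA5, PSMA6, PSMB1, PSMB2, PSMB6, PSMB7, PSMC1, PSMC2, PSMD1, PSMD6, PSMD10, PSMD11, PSMD12 and PSMD14.

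By role, all 14 core genes (median -0.31) and 19 of 20 cap genes (median -0.26) were below 0. The medians of the groups were -0.28 for the alpha ring, -0.31 for the beta ring, -0.26 for the ATPases, -0.30 for PSMD1, PSMD2 and PSMD4, and -0.30 for the lid. The assembly chaperones had a median of -0.11, with PSMD5 above 0 and the other 2 below. PSMB2 was at -0.35 ± 0.20 (95% interval -0.78 to 0.07) and PSMC5 at -0.26 ± 0.23 (-0.74 to 0.22). The catalytic subunits PSMB5, PSMB6 and PSMB7 were at -0.38, -0.42 and -0.31.

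The 3 genes at an unadjusted p under 0.05 were PSMA6, PSMD1 and PSMD6, none of which passed adjustment (edgeR adjusted p 1 for each). PSMA6 stood at 6.49, 6.06 and 6.86 CPM with WT and at 4.45, 3.79 and 3.99 CPM with K700E, a log2 change of -0.67 ± 0.26. PSMD1, the large scaffold subunit of the base, stood at 385, 360 and 340 CPM with WT and at 247, 318 and 248 CPM with K700E, a change of -0.42 ± 0.19. PSMD6, a lid subunit, stood at 259, 239 and 242 CPM with WT and at 161, 183 and 180 CPM with K700E, a change of -0.50 ± 0.22. In each of the 3 the groups did not overlap.

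PSMA2 had the lowest estimate, -0.93 ± 0.63, at 1.42, 0.581 and 0.458 CPM with WT and 0.171, 0.929 and 0.142 CPM with K700E, which overlapped. PSMD4 and PSMD14 were nearest to 0 among the abundant genes, both at -0.09.

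Level, as the mean CPM over the cytoplasmic libraries of both constructs, was set beside the shift. Among protein-coding genes at 200 CPM or more, 64.3% were below 0 with a median of -0.07, while the 18 proteasome genes there were all below 0 with a median of -0.30. At 50 to 200 CPM the median of 4145 genes was -0.03, and the 10 proteasome genes there were all below 0 with a median of -0.26. The TRiC chaperonin, another ring complex of abundant subunits, had 7 of 8 genes below 0 with a median of -0.17. SF3B1 was at -0.25 ± 0.30 in the same comparison (edgeR adjusted p 1), lowest in replicate 1 of K700E like the proteasome sum. The mitochondrially encoded mRNAs summed to 18783, 13763 and 4473 CPM in the WT cytoplasm and to 6108, 7162 and 7134 CPM in the K700E cytoplasm. The part of either in the proteasome shift was not tested.

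Leaving out each library in turn gave medians of -0.36 to -0.22, with 30 of 34 to 34 of 35 tested genes below 0. Of all genes in these fits, 45.0 to 49.1% were below 0. The 30 came without replicate 3 of the WT cytoplasm, where the median was -0.27. The number with an unadjusted p under 0.05 ran from 0 to 4 among these fits. It was 11 of 32 genes tested when only the 6 cytoplasmic libraries were fitted, with 0 called, as for all 15200 genes of that fit. The shares of all genes at that p in these fits are not given here, so these numbers are no result about the proteasome genes.

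**Figure D4:**
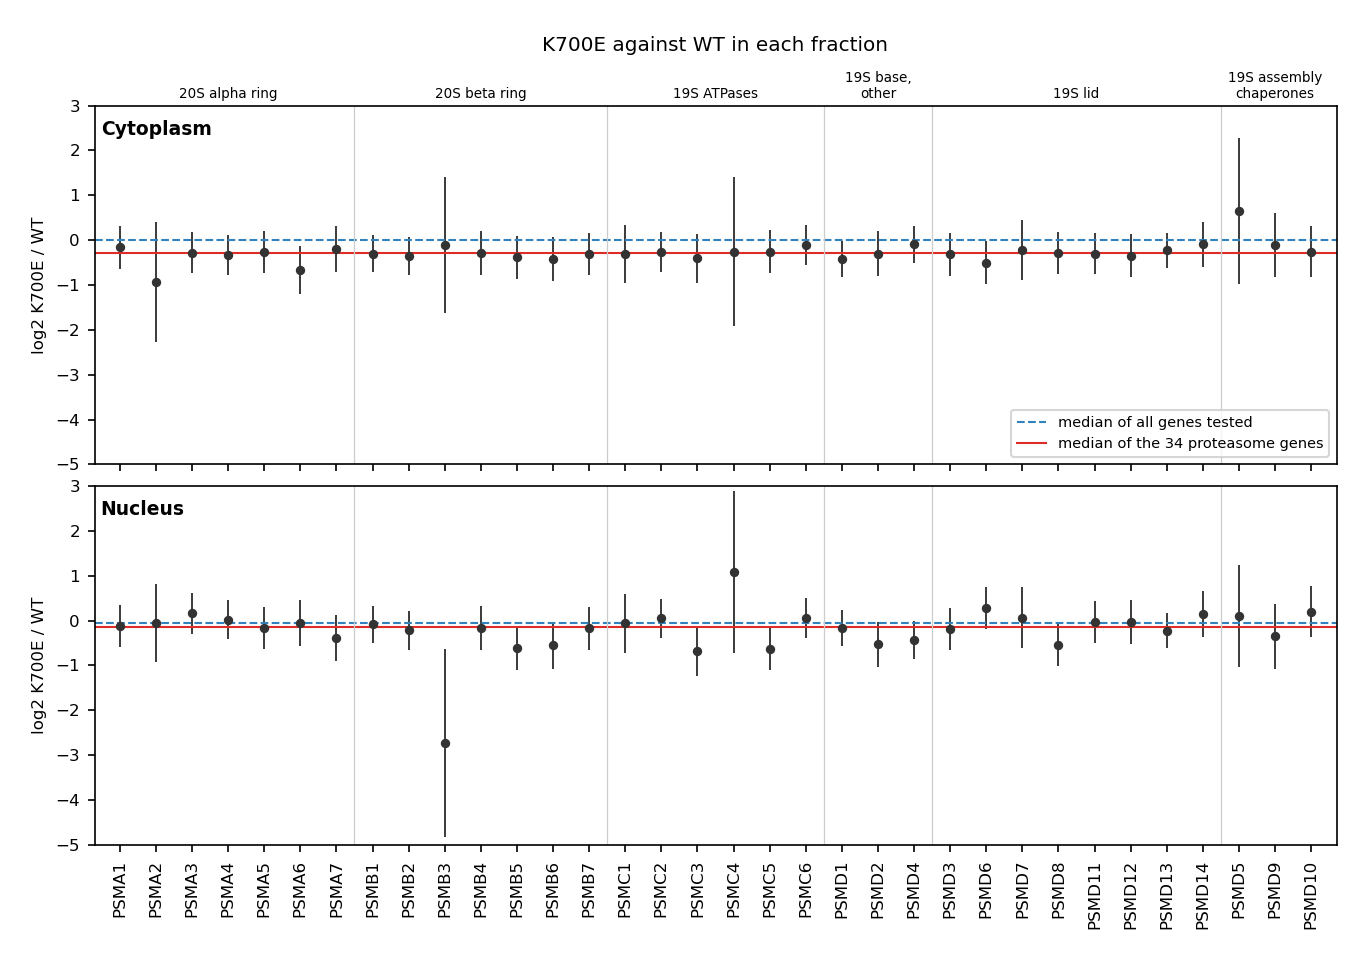
Log2 change with K700E for each of the 34 genes in the cytoplasm (top) and the nucleus (bottom), as edgeR estimates with 95% intervals; the red line is the median of the 34 genes and the dashed line that of all genes tested. In the cytoplasm 33 of 34 points lie below 0 around -0.29, and nearly all of their intervals span 0; in the nucleus they scatter around -0.15.

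In the nucleus K700E left no proteasome gene past the test with edgeR or with DESeq2, as for all 20394 genes with edgeR (0.0% in either direction). Over all genes DESeq2 called 0 higher and 1 lower. The median was -0.15, with 24 of 34 genes below 0, against -0.05 and 54.2% for all genes. At an unadjusted p under 0.05 there were 8 genes with edgeR, all lower, against 6.81% of all genes, and 8 with DESeq2, against 1597 of 20394 genes. The edgeR number of proteasome genes ran from 1 to 9 when each library was left out in turn. It was 1 without replicate 2 of either nuclear group and 2 without replicate 3 of the K700E nucleus. It was also 1 when only the 6 nuclear libraries were fitted. The shares of all genes at that p in these alternative fits are not given here.

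Those 8 were PSMB3, PSMB5 and PSMB6 of the beta ring, the ATPases PSMC3 and PSMC5, the base subunits PSMD2 and PSMD4, and the lid subunit PSMD8. All had an edgeR adjusted p of 0.659. PSMC5 stood at 114, 162 and 101 CPM with WT and at 95.1, 65.7 and 83.1 CPM with K700E, with no overlap, a log2 change of -0.63 ± 0.23. PSMC3 stood at 59.6, 80.4 and 46.7 CPM with WT and at 53.9, 29.98 and 32.3 CPM with K700E, which overlapped, a change of -0.68 ± 0.27.

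PSMB5 stood at 26.9, 34.8 and 22.4 CPM with WT and at 22.0, 15.98 and 16.8 CPM with K700E, with no overlap, a change of -0.62 ± 0.23. Over the 34 genes, 4 had all K700E nuclear libraries below all WT ones (PSMB5, PSMC5, PSMD4 and PSMD13), against 4.87% of all genes. PSMB6, PSMD2, PSMD4 and PSMD8 were at -0.55, -0.52, -0.43 and -0.54. PSMB3, with at most 61 counts in a nuclear library, had the lowest estimate, -2.72 ± 0.99. It was called lower (edgeR adjusted p 0.0244) only when no filter on low counts was used. That setting called 26 of all 42964 genes lower and 10 higher.

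On the upper side, PSMC4 was at 1.08 ± 0.86 and PSMD6 at 0.28 ± 0.23, neither called. PSMC4 stood at 0.940, 0.965 and 0.182 CPM with WT and at 3.67, 0.518 and 0.262 CPM with K700E, so that its estimate rests on 1 library, and it was -0.82 without replicate 1 of K700E. PSMB2 was at -0.21 ± 0.21.

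The nuclear estimates followed the base composition of the genes. Across the 34 genes their Spearman correlation with the GC content of the longest transcript was -0.69, and across the 27 it was -0.81, while in the cytoplasm it was 0.03 and -0.17. Trends with GC were also seen over all genes of single libraries: the slope of log2 CPM per 10% GC was 0.36 in replicate 2 of the WT nucleus and -0.44 in replicate 2 of the K700E nucleus, and the other 4 nuclear libraries lay between -0.16 and -0.09. With the GC trend of each library removed, the nuclear median was -0.27 and 33 of 34 genes were below 0, against -0.05 and 57.1% for all genes. Without those 2 libraries, an alternative chosen after the data were seen, it was -0.21 with 33 of 35 below 0. All genes there had a median of -0.03 with 54.5% below 0. Leaving out each library in turn gave medians from -0.28 to -0.0016.

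**Figure D5:**
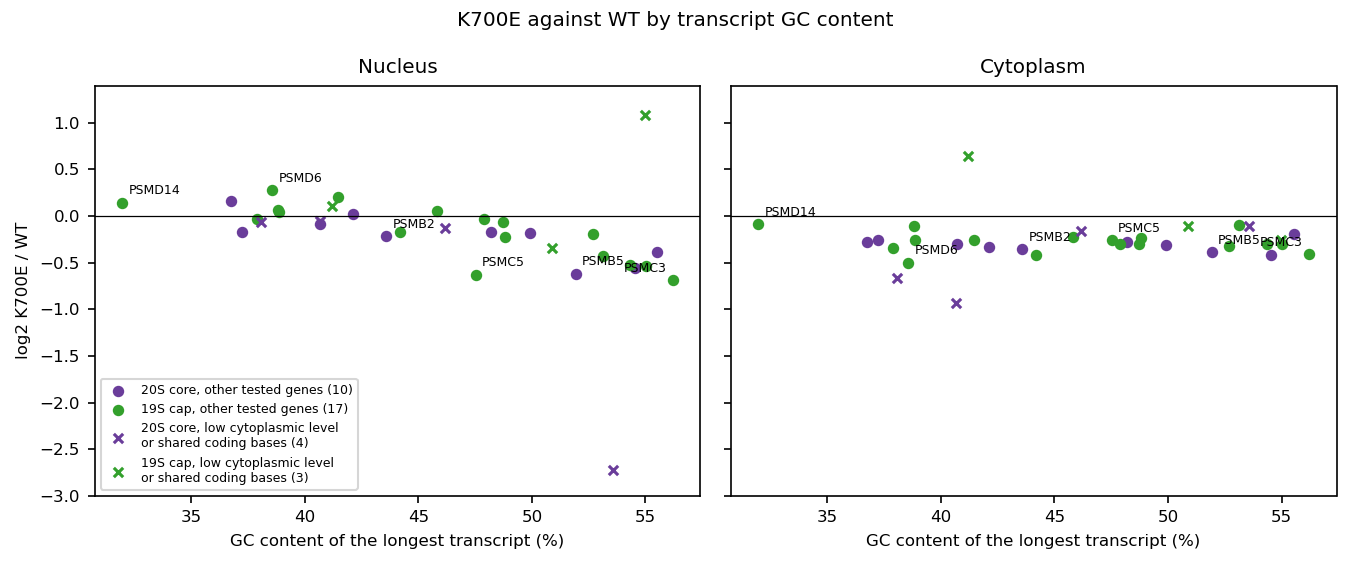
Log2 change with K700E against the GC content (%) of the longest transcript for the 34 genes, nucleus left and cytoplasm right, coloured by 20S core and 19S cap, with crosses for the 7 genes of low cytoplasmic level or shared coding bases. The nuclear values decline with GC (Spearman -0.69), and the cytoplasmic values show no such decline (0.03).

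Whether the split between fractions itself differed by construct was tested as the interaction of construct and fraction. No gene of the 34 passed the test with edgeR (0.0% of all genes) or with DESeq2, which called 2 higher and 1 lower of 20394 genes. With either tool 2 of the 34 had an unadjusted p under 0.05, against 3.3% of all genes with edgeR and 703 of 20394 with DESeq2. In the edgeR fit 23 of 34 were below 0 (46.3% of all genes) with a median of -0.14. PSMD6 was at -0.78 ± 0.32 and PSMB3 at 2.62 ± 1.22, and both had an edgeR adjusted p of 0.98. PSMB2 was at -0.14 ± 0.29 (95% interval -0.75 to 0.47) and PSMC5 at 0.37 ± 0.32 (-0.31 to 1.05). At the ends of the other members were PSMC4 at -1.34 ± 1.16, PSMA2 at -0.88 ± 0.76 and PSMD5 at 0.54 ± 0.94. With the GC trends removed the median was -0.01 and 17 of 34 genes were below 0, against 0.05 and 44.5% for all genes. Without replicate 1 of the K700E nucleus the median was 0.03 and 16 of 35 genes were below 0. All genes there had a median of 0.07 with 45.9% below 0.

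Genes that work with the proteasome were read from lists of their own. ADRM1, a ubiquitin receptor of the cap, and SEM1, a small lid subunit, do not carry a PSM name and were both called higher in the cytoplasm with WT, at 1.39 and 1.62. With K700E, ADRM1 was called at 1.87 and SEM1 was not, at 0.68 (edgeR adjusted p 0.0898). Of the 5 chaperones that build the core (PSMG1 to PSMG4 and POMP), 4 were called higher under each construct, with POMP at 2.88 ± 0.28 with WT and PSMG4 the one not called. Among the activators and the inhibitor, PSME3 (3.60 ± 0.37) and PSMF1 (2.48 ± 0.21) were called higher with WT and the other 3 of 5 were not called. With K700E the same 2 were called higher, at 3.16 and 2.28, and PSME4 was called lower, at -0.56 ± 0.22 (edgeR adjusted p 0.0333). Of 7 deubiquitinases and ubiquitin shuttles, 6 were called higher under each construct, led with WT by the shuttle RAD23B at 2.86 ± 0.24, and the deubiquitinase USP14 was not called. The cap assembly factor PAAF1 was not called.

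With K700E in the cytoplasm no gene of these lists passed the test. ADRM1 and SEM1 were at -0.35 and -0.31, and 4 of the 5 core chaperones were below 0 with a median of -0.20. The 7 deubiquitinases and shuttles had a median of -0.03 with 4 below 0. NFE2L1 was at 0.06 ± 0.23, its protease DDI2 at -0.13 ± 0.23, its deglycosylase NGLY1 at 0.06 ± 0.20 and the segregase VCP at -0.44 ± 0.21.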

How the data were processed

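RNA was measured by sequencing in 12 HEK293T libraries (3 per group). The deposited files hold whole-number read counts per gene from the authors. HISAT2 and DESeq are named in the submitters' processing notes; for the counting program, build, annotation and strand setting, nothing is given in the sources used here. Gene types and lengths came from GENCODE 29, which held 99.7% of the counts, and symbols from a separate gene name reference. Genes kept by filterByExpr (minimum count 10, total 15) were fitted with edgeR 4.0.16 in R 4.3.3: TMM scaling, 1 term per group over all 12 libraries, glmQLFit and glmQLFTest, with Benjamini-Hochberg adjustment over 20394 genes and calls at 0.05. Other scaling, filters, a GC correction, a replicate block, DESeq2 1.42.0 and leaving out each library were the alternatives. The code was tested on simulated data. Total counts of 9086743 to 18116929 per library set the precision, which is low for genes of a few counts.

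The members and gene lists were chosen with earlier results of these data known, among them the shared shift with K700E in the cytoplasm. Named in full were PSMB2 and PSMC5, the 2 highest and 2 lowest genes of each comparison, and those with an unadjusted p under 0.05 where no gene was called in a construct comparison. Pseudogenes named after these genes (36) held 1100 counts, 0.155% of the members' counts.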

Additional observations from a re-analysis of the deposited data

How the results depend on the processing

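Alternatives kept the direction of the medians, except that of the interaction (0.03 without K700E nucleus replicate 1), and most calls: of the values that answer a comparison, 319 stayed within their limits and 13 moved, and of single genes 699 kept direction and call, 11 lost a call, 1 gained one and 8 changed sign. Scaling by library size alone, which moved the median of all genes with WT from -0.40 to -0.92, gave medians of cytoplasm to nucleus of 0.85 (WT) and 0.73 (K700E) and 5 genes called lower with WT. A minimum of 1 CPM in all 12 libraries gave a WT median of 1.05. With GC trends removed, or without the 2 nuclear libraries of steepest GC trend, 5 were called lower with WT. Over all genes these settings called 8514 of 20394 and 8132 of 21475 lower. Without the 7 members of low cytoplasmic level or shared coding bases, 0 were called lower with WT and 1 with K700E. The 3 genes called lower with WT in the main fit were among the 7 taken out, so that 0 follows from the choice. With no filter, 1 gene (PSMB3) was called lower with K700E in the nucleus, against 26 lower and 10 higher of all 42964 genes. The core shares by longest transcript were 43.6% (WT nucleus), 49.1% (WT cytoplasm), 44.1% (K700E nucleus) and 48.6% (K700E cytoplasm). The cause was not tested.

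Sign changed for PSMD6 in the nucleus (-0.033 with GC trends removed, -0.070 without those 2 libraries), PSMC4 in the nucleus and in the interaction without K700E nucleus replicate 1 (ranges over left-out libraries -0.82 to 1.59 and -1.84 to 0.57), PSMD5 in the cytoplasm and in the interaction without K700E cytoplasm replicate 2 (-0.68 to 1.13 and -0.79 to 1.02), and PSMB2 in the interaction (0.016 with GC trends removed, and 0.045 without K700E nucleus replicate 1, range -0.27 to 0.045). None of these was called.

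Leaving out 1 library at a time gave 22 to 27 genes called higher and 3 to 4 lower with WT (median 1.26 to 1.44), and 21 to 25 higher and 3 to 4 lower with K700E (median 1.07 to 1.33). Of all 21193 to 22157 genes tested in these fits, 5093 to 5755 were called higher and 7629 to 8771 lower with WT. With K700E, 5352 to 6207 of all genes were called higher and 7124 to 8456 lower. Medians were -0.36 to -0.22 for K700E in the cytoplasm, -0.28 to -0.0016 in the nucleus and -0.30 to 0.03 for the interaction, with 0 called throughout. Core shares were 46.9 to 47.9% (WT nucleus), 52.0 to 52.3% (WT cytoplasm), 46.6 to 48.3% (K700E nucleus) and 51.4 to 51.9% (K700E cytoplasm).

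The labels number the replicates alike in each group. Same-numbered libraries deviated together with correlations of 0.03 to 0.34 between the cytoplasmic groups and 0.06 to 0.43 between the nuclear groups. Differently numbered libraries had correlations of -0.28 to 0.17 and -0.33 to 0.13. Between nucleus and cytoplasm, the same numbers had -0.16 to 0.09 with WT and -0.17 to 0.06 with K700E. The main fit did not pair the libraries, and whether the same numbers share a batch was not tested. With a replicate block the K700E median was -0.29 in the cytoplasm and -0.15 in the nucleus, the WT and K700E medians of cytoplasm to nucleus were 1.37 and 1.14, the interaction median was -0.13, and the counts called were 26 and 3 with WT, 24 and 4 with K700E and 0 elsewhere.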

Other observations

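The 39 genes lie on 16 chromosomes, with 6 each on chromosomes 14 and 17 and 4 on chromosome 1. The tested members are compact: their median gene span was 17695 bases against 34607 for tested protein-coding genes, and their longest transcripts had a median of 7 exons against 8. Their median transcript GC content was 46.8% against 48.3%.

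The TRiC chaperonin had all 8 genes called higher in the cytoplasm under both constructs (edgeR adjusted p under 0.05), with medians of 1.77 (WT) and 1.74 (K700E), from CCT8 at 0.80 to CCT7 at 3.14 with WT. NGLY1, the deglycosylase that processes NFE2L1, was lower in the cytoplasm than in the nucleus, with log2 ratios of -0.70 with WT and -1.01 with K700E.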
